A study of Mus musculus with 24 samples.

Results

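The genes described here are 36 members of the unfolded protein response and the integrated stress response, out of 30341 gene names on the array. They were taken by function, with earlier results of these data known. They comprise 4 sensors and transcription factors of the sensors and 9 factors and targets of the integrated stress response. The others are 11 chaperones and co-chaperones of the endoplasmic reticulum (ER), 5 enzymes of oxidative folding and 7 genes of ER-associated degradation. Each gene was read from its brightest probe. Of the 36 genes, 33 passed the filter on dim probes and were among the 15056 genes tested. The other 3, Atf3, Chac1 and Derl3, were not well above background on any of the 24 arrays. Atf3 and Chac1 are ATF4-dependent stress genes and Derl3 is a derlin of ER-associated degradation.

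The unfolded protein response adjusts the folding capacity of the ER to its load. Its 3 sensors are ATF6, a membrane-bound transcription factor that is cut and released, IRE1 (gene Ern1), which splices the mRNA of Xbp1, and PERK (gene Eif2ak3), which phosphorylates the translation factor eIF2. PERK shares this last step with the other eIF2 kinases of the integrated stress response, which favours translation of ATF4 and, downstream of it, induction of CHOP (gene Ddit3), Trib3, Asns and Nupr1. Splicing of Xbp1, cleavage of ATF6 and phosphorylation of eIF2 cannot be read from these arrays, which measure RNA abundance.

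The samples are RNA of DA1-3B, a leukaemia cell line from C3H eOuJ mice, and all 6 groups carry the Bcr-Abl oncogene. They differ in the plasmid transfected, which was empty (VOID) or coded for p65/RelA, the main activating subunit of NF-kappaB. The p65 plasmids held the WT protein, the D361E mutant, which the design calls non-cleavable, the N-terminal piece p1-361, the C-terminal piece p363-549, or both pieces in the same cells (both fragments). Each group has 4 one-colour arrays. The design asks which genes WT p65, its mutant and its fragments regulate. The sample names and the treatment protocol place the start of the C-terminal fragment 1 residue apart. How many cells took up a plasmid is not given. Nor do the labels say if a group's 4 arrays stand for 4 cultures, so the spread behind each p-value may be technical.

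The transcription factors of these pathways are known to act through short promoter elements, and the sequences below show which members hold one. RefSeq promoter windows of 300 bases (250 before and 50 after the start site, build GRCm38.p6) were found for 32 of the 36 genes. The ER stress response element (ERSE), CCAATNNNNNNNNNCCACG, was searched on both strands and is the element that ATF6 and XBP1 are known to use. It was present in 10 of the 32 members (31.2%) and in 0.137% of all genes with a window. The matches are given 5′ to 3′ along the element, with the letters the element fixes in capitals, and the coordinates are those of the element.
Calr, chr8:84847075-84847093, plus strand: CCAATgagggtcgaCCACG
Canx, chr11:50325800-50325818, minus strand: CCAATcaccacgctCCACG
Creld2, chr15:88819520-88819538, minus strand: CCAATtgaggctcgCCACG
Derl3, chr10:75893242-75893260, minus strand: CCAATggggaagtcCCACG
Dnajc3, chr14:118937827-118937845, plus strand: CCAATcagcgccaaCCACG
Ero1lb, chr13:12565682-12565700, minus strand: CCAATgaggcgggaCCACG
Hsp90b1, chr10:86705638-86705656, minus strand: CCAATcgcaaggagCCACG
Hsp90b1, chr10:86705533-86705551, plus strand: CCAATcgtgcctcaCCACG
Hspa5, chr2:34772025-34772043, plus strand: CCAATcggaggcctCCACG
Pdia6, chr12:17266491-17266509, plus strand: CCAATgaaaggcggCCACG
Syvn1, chr19:6046532-6046550, plus strand: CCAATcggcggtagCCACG

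The related ERSE-II, ATTGG and CCACG separated by 1 base, was found in 2 members, against 0.0444% of all genes. It is shown with 6 flanking bases on each side.
Dnajb11, chr16:22857852-22857862, plus strand: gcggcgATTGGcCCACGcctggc
Herpud1, chr8:94386377-94386387, plus strand: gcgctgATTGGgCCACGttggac

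The ATF4 element (CARE), TGATGNAA, was found in 6 of the 32 members (18.8%), against 4.51% of all genes, and these 6 are stress-response targets rather than chaperones, apart from the degradation gene Herpud1. Its matches are also shown with 6 flanking bases.
Asns, chr6:7693225-7693232, minus strand: gccacaTGATGaAActtccc
Atf3, chr1:191183436-191183443, plus strand: acttggTGATGcAAgtgcga
Chac1, chr2:119351049-119351056, minus strand: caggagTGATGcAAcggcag
Herpud1, chr8:94386317-94386324, minus strand: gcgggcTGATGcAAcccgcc
Nupr1, chr7:126625573-126625580, plus strand: cctgtcTGATGcAAtctggc
Trib3, chr2:152344039-152344046, plus strand: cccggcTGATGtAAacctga

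Herpud1 carried both kinds of element. The windows of Nupr1, the member whose level differed between the groups, and of Hspa5, the chaperone BiP, are given in full, with matches in capitals. The Hspa5 window holds an ERSE and the UPRE core TGACGTG, which was present in 2.22% of all genes. The Nupr1 window holds the CARE, on the strand opposite to the one printed. A 10-base consensus for kappaB sites, the motif bound by NF-kappaB, matched in 6 of the 32 members (18.8%) and in 9.55% of all genes, and Nupr1 was not among the 6. A match or its absence describes the letters of the window only.
Nupr1 promoter window, chr7:126625421-126625720: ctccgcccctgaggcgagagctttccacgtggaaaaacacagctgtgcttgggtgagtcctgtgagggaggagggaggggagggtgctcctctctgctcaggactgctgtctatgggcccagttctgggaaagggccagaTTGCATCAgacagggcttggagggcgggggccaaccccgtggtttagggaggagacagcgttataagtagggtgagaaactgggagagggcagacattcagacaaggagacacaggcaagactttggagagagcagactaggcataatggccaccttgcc
Hspa5 promoter window, chr2:34771840-34772139: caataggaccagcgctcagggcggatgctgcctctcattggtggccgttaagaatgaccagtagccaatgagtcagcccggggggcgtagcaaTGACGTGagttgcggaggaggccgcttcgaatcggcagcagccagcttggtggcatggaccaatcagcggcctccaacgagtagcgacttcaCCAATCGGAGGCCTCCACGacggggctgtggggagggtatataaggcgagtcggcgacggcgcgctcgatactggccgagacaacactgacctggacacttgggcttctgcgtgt

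The values of Nupr1 come from a single probe, of 60 bases, located by the array files on build mm9 (minus strand).
Nupr1 probe, chr7:133766978-133767037: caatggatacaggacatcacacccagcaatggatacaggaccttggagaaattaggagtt

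Well above background were 49.4% to 55.5% of the spots on an array, and the array's 75th percentile of signal was between 641 and 1223. Rela, the gene of p65, was higher on every array of the 5 p65 groups (log2 levels 4.61 to 4.99) than on every VOID array (4.24 to 4.50). Where its probe lies relative to the fragments was not determined. RNA of the plasmid and of the cells' own Rela can therefore not be told apart, and expression of each construct is not shown by this reading. The DA1-3B identity genes Ptprc, Spn, Il3ra, Csf2rb, Csf2rb2, Itgam, Cd44 and Spi1 were above background on 24 of 24 arrays. The other 4 genes of that list were mostly not: Mpo was on 4 arrays, Cd34 and Cd33 on 1 each and Kit on 0. Plasma cells are rich in ER proteins, and of 12 plasma cell and B cell markers on the array 8 were above background on no array, among them the defining markers Jchain, Sdc1, Prdm1 and Tnfrsf17. Of the other 4, Cd79b was above background on 24 arrays, Mzb1 on 18, Pax5 on 2 and Irf4 on 1.

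Both a few arrays and a group of arrays stood apart, and each bears on the results. Over 200 genes that separate the groups, 21 of 24 arrays were closest to their own group. The other 3 were replicate 4 of each fragment group. The p1-361 array had a correlation of 0.94 with the other p363-549 arrays, against 0.20 with its own group. For the p363-549 array it was 0.97 with the arrays of both fragments, against −0.51 with its own. For the array of both fragments it was 0.90 with the p1-361 arrays, against −0.12 with its own. These are called here the libraries labelled p1-361, p363-549 and both fragments, replicate 4, and results are given with and without them. In addition, the arrays fell into 4 sets of 6 consecutive sample numbers, with 1 array of each group in each. The replicate numbers used here are the set numbers. The labels call these sets nothing, and the 6 arrays of the third set lay on 6 different slides.

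All levels below are log2 signal relative to the array's 75th percentile, differences are log2 differences between group means, and a gene is said to be called when its limma adjusted p over all 15056 genes is under 0.05. Nupr1, a small stress-induced nuclear protein and a target of ATF4, was the only member called in the test for any difference among the 6 groups (limma adjusted p = 0.0116). That is 1 of 33 members, beside 2.84% of all genes tested. Against VOID, Nupr1 fell 9.67-fold in p1-361 and 15.5-fold in cells with both fragments. No other member passed in any of the 11 comparisons. Most members instead varied between the sets. The third array was the highest of every group for Xbp1, Ddit3, both ER oxidases and 4 of 11 chaperones (Hspa5, Hsp90b1, Manf and Dnajb9).

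The Nupr1 levels on the VOID arrays were 1.27, 0.79, 0.62 and 0.14. On the WT arrays they were −0.26, −0.81, −0.26 and −1.71, and on the D361E arrays −1.21, −1.41, −1.001 and −0.87. Every VOID array was thus above every array of both full-length constructs. In p1-361 the levels were −3.11, −3.22, −3.54 and −0.40, and in p363-549 they were −0.48, −0.62, −0.17 and −4.11. With both fragments they were −3.51, −3.40, −3.13 and −2.96. The fourth array of p1-361 lay with the p363-549 arrays, and the fourth array of p363-549 lay below all arrays of both fragments. VOID did not overlap any of the other 5 groups, and the 4 arrays of both fragments lay below every WT and D361E array. In this bulk RNA, fewer cells that express a gene and less of its RNA per cell cannot be told apart.

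**Figure D1:**
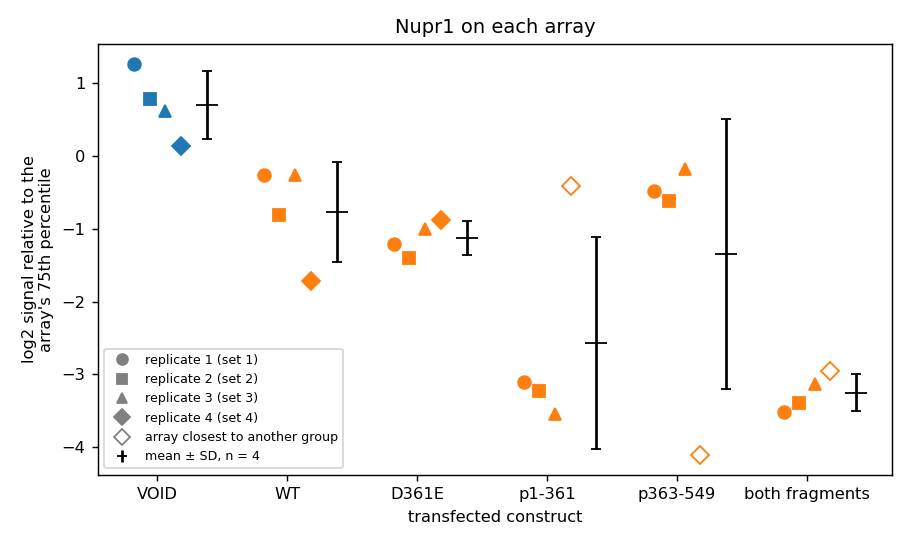
Log2 level of Nupr1 relative to the 75th percentile (vertical axis) on each of 24 arrays, by construct (horizontal axis); symbols give the replicate, open symbols mark replicate 4 of the fragment groups, and bars are the mean ± SD of 4 arrays. The VOID arrays, 0.14 to 1.27, lie above all others, and 2 of the 3 open symbols lie far from their own group.

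The Nupr1 mean was 0.70 ± 0.47 (SD, n = 4) in VOID and −3.25 ± 0.25 (SD, n = 4) with both fragments, a difference of −3.96 (95% interval −5.36 to −2.55, limma adjusted p = 0.00137). This call was 1 of 33 members, beside 4.35% of all genes. In p1-361 the mean was −2.57 ± 1.45 (SD, n = 4) and the difference from VOID −3.27 (95% interval −4.68 to −1.86, limma adjusted p = 0.0205), again 1 of 33 members, beside 0.671% of all genes. Within the sets, Nupr1 differed between both fragments and VOID by −4.79, −4.18, −3.75 and −3.09. For p1-361 the same differences were −4.38, −4.01, −4.16 and −0.54. All were below 0, with the smallest in the fourth set. On the slides that held both groups the differences were −3.27 and −4.30 for both fragments and −3.36 and −1.68 for p1-361. The call in p1-361 ended when p1-361 replicate 1, 2 or 3 or VOID replicate 1 or 2 was left out (adjusted p from 0.0714 to 0.115), and when the third set was left out (limma adjusted p = 0.238), which also ended the call among the 6 groups (limma adjusted p = 0.202). The call with both fragments held in all of them.

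The other constructs had lower Nupr1 means than VOID with no call: −1.47 in WT (95% interval −2.87 to −0.06, limma adjusted p = 0.846), −1.83 in D361E (95% interval −3.23 to −0.42, limma adjusted p = 0.472) and −2.05 in p363-549 (95% interval −3.46 to −0.64, limma adjusted p = 0.301). Without the 3 libraries labelled as replicate 4 of the fragment groups, Nupr1 was the 1 member called against VOID in WT (−1.47, limma adjusted p = 0.00689) and in D361E (−1.83, limma adjusted p = 0.000706), beside 1.24% and 1.58% of all genes. No WT, D361E or VOID array was left out there, and the differences did not change. The fit shares its spread over all groups, and that spread changed. With only the arrays compared, Nupr1 was called in D361E against VOID (limma adjusted p = 0.00728) but not in WT. Without the same 3 libraries the difference in p363-549 was −1.13 with no call (limma adjusted p = 0.102). In p1-361 it was −3.99 (limma adjusted p = 9.83e-08, beside 2.69% of all genes called) and with both fragments −4.05 (limma adjusted p = 1.87e-08). Leaving out the same libraries, Nupr1 was also lower in p1-361 than in WT by a log2 difference of −2.53 (limma adjusted p = 5.6e-05, beside 0.752% of all genes called) and lower in p1-361 than in p363-549 by −2.87 (limma adjusted p = 4.69e-05, beside 0.569%). The order of the Nupr1 means on all arrays ran from VOID through WT, D361E, p363-549 and p1-361 to both fragments. The neighbours WT and D361E, D361E and p363-549, p363-549 and p1-361, and p1-361 and both fragments had overlapping arrays. With all arrays, the difference between both fragments and WT was −2.49 (limma adjusted p = 0.091), and without the 3 libraries it was −2.59 (limma adjusted p = 1.26e-05, beside 5.74% of all genes called).

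Markers of other blood cells moved with these comparisons. The summed signal of 10 mast cell and basophil markers, in units of the 75th percentile, was 49.3 to 73.9 in VOID and 28.5 to 37.7 with both fragments. Of these markers 4 of the 8 tested were called lower there, where 2.52% of all genes were. For 16 erythroid and megakaryocyte markers the sum was 218 to 435 in VOID and 148 to 268 with both fragments. Of 13 tested 8 were called lower and 1 higher, beside 2.52% and 1.83% of all genes. The sum of the 12 identity genes of the line was 123 to 158 in VOID and 55.8 to 86.4 with both fragments. Monocyte markers ran from 4.42 to 6.37 in VOID and from 3.53 to 6.69 with both fragments, and plasma cell and B cell markers from 2.07 to 2.51 and from 1.77 to 2.72. In p1-361 the mast cell sum was 33.2 to 57.8, with 1 of 8 called lower than in VOID. There the erythroid and megakaryocyte sum was 172 to 260, with 4 of 13 called lower, beside 0.352% of all genes. In WT those sums were 45.9 to 61.8 and 106 to 165, with 1 of 8 and 7 of 13 called lower, beside 0.239% of all genes. Ms4a2, Alas2, Ahsp and Mrc1 were above background on no array. The part of cell types in the Nupr1 result was not tested.

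Outside Nupr1, the members' differences from VOID were small beside their spread, which in this fit includes the differences between the sets. Calls with the sets as a block are given further below. The 95% intervals lay within 1 log2 unit of 0, less than a doubling or halving, for 29 of 32 members in WT, 28 in D361E, 28 in p1-361, 29 in p363-549 and 26 with both fragments. The median standard error of a member's difference was 0.25. With limma no member was called in WT, D361E or p363-549 against VOID, where 0.465%, 0.651% and 0.591% of all genes were. At an unadjusted p under 0.05 were 4 of 33 members in WT, 4 in D361E, 4 in p1-361, 2 in p363-549 and 6 with both fragments, where 5.66%, 6.3%, 7.82%, 6.75% and 18.6% of all genes were. Against WT, limma called no member in D361E, p1-361, p363-549 or both fragments, beside 0.0797%, 0.126%, 0.12% and 1.04% of all genes. Unadjusted, 0, 1, 1 and 2 members passed there, beside 3.06%, 2.98%, 5.25% and 12.6%. Between p1-361 and p363-549 limma called 0% of all genes, and 0 members passed unadjusted, beside 1.88%. The test of additivity (both fragments minus VOID, less each fragment's own difference from VOID) called 0 members with limma, beside 0.213% of all genes, and 3 passed unadjusted, beside 14.3%.

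The members leaned to one side of zero in some comparisons without any of them passing. In D361E the difference from WT was below 0 for 30 of 33 members, with a median of −0.18, where 56.2% of all genes were above 0 (median 0.03). The same count was 23 under normexp background correction and 28 to 29 under the other scalings. The sign was not the same in every set for all members. In the third set Trib3 read 4.32 in D361E and 5.49 in WT, and Calr 4.21 and 4.88. In the fourth set Trib3 read 3.59 and 3.49, and Calr 4.23 and 4.13. Hspa5 was lower in D361E in both sets (5.44 and 6.06, then 5.15 and 5.24). How far the lean rests on the third arrays was not tested. In p1-361 the difference from WT was below 0 for 28 of 33 members (median −0.10), where 56.2% of all genes were above 0, and for 23 to 27 under other scalings. Against VOID the count was 26 of 33 in D361E (median −0.21), where 44.6% of all genes were above 0. These comparisons share arrays of D361E or WT, and the genes are not independent.

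Among the sensors, Eif2ak3, which encodes PERK, had levels of −0.93, −1.13, −0.30 and −0.73 in VOID and of −0.86, −0.86, −0.21 and −0.81 with both fragments. Eif2ak3 read −1.06, −1.07, −0.07 and −0.89 in WT and −1.03, −0.84, −0.35 and −0.73 in D361E. For Eif2ak3 the p1-361 arrays gave −1.08, −0.92, −0.19 and −0.94, and those of p363-549 −1.24, −1.31, −0.09 and −0.71. The third array was the highest in all 6 groups, and the groups overlapped. Its differences from VOID lay between −0.07 and 0.09 in all 5 groups, with an interval of −0.49 to 0.67 for both fragments. Ern1, which encodes IRE1, had levels of −0.65, −1.83, −1.43 and −1.74 in VOID and −1.73, −2.07, −1.38 and −1.83 with both fragments (difference −0.34, 95% interval −0.98 to 0.29). Ern1 read −1.11, −1.57, −1.10 and −1.86 in WT and −0.40, −1.12, −1.28 and −1.76 in D361E. For Ern1 the p1-361 arrays gave −0.87, −1.55, −1.64 and −1.74, and those of p363-549 −0.62, −1.54, −1.31 and −1.77. The first array was the highest in VOID, D361E, p1-361 and p363-549, but not in WT or with both fragments. Atf6 levels were −0.74, −0.49, −0.36 and −0.72 in VOID and −1.09, −0.62, −0.25 and −0.89 with both fragments (difference −0.14, 95% interval −0.52 to 0.24). Atf6 read −0.68, −0.11, −0.32 and −0.63 in WT and −0.63, −0.68, −0.52 and −1.10 in D361E. For Atf6 the p1-361 arrays gave −0.78, −0.47, −0.39 and −0.47, and those of p363-549 −0.73, −0.24, −0.53 and −0.72. None of these 3 genes separated a construct from VOID.

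Xbp1, the mRNA that IRE1 splices, had levels of 5.02, 4.90, 5.92 and 5.29 in VOID, of 5.21, 5.18, 6.05 and 5.10 in WT and of 5.02, 5.08, 5.64 and 5.06 in D361E. In p1-361 they were 5.10, 5.16, 5.97 and 4.92, in p363-549 they were 5.25, 5.36, 6.47 and 4.87, and with both fragments 4.75, 4.72, 5.56 and 4.83. In every group the third array was the highest, by more than the other 3 differed among themselves, while the groups overlapped. The difference between both fragments and VOID was −0.32 (95% interval −0.98 to 0.34). Spliced and unspliced Xbp1 RNA are not told apart here.

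Atf4, the central transcription factor of the integrated stress response, is controlled mainly in translation. Its RNA levels were 7.24, 6.56, 6.69 and 6.85 in VOID and 6.77, 6.69, 7.02 and 6.55 with both fragments. Atf4 read 6.92, 6.56, 6.97 and 6.77 in WT and 6.28, 6.63, 6.52 and 6.78 in D361E. For Atf4 the p1-361 arrays gave 6.71, 6.4, 6.50 and 6.67, and those of p363-549 6.89, 6.72, 6.53 and 6.48. The groups overlapped, and the difference between both fragments and VOID was −0.07 (95% interval −0.40 to 0.25). Over the 5 constructs the differences from VOID ran from −0.28 to −0.03. Ddit3, which encodes the pro-apoptotic factor CHOP, had levels of −0.22, −0.55, 1.42 and −0.31 in VOID, of 0.16, 0.14, 2.73 and −0.33 in WT and of 0.18, −0.35, 0.63 and −0.78 in D361E. In p1-361 they were 0.19, −0.10, 1.24 and −0.50, in p363-549 they were 0.08, −1.86, 2.03 and −0.85, and with both fragments −0.87, −1.75, 0.82 and −0.58. The third array was again the highest in each group. The wide interval of the difference between both fragments and VOID, −2.21 to 0.85 around −0.68, goes with the spread of those arrays.

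Trib3, a pseudokinase induced by ATF4 and CHOP, had levels of 4.51, 3.73, 4.77 and 3.51 in VOID and 3.24, 2.76, 4.94 and 2.94 with both fragments. Trib3 read 4.13, 3.92, 5.49 and 3.49 in WT and 4.18, 3.75, 4.32 and 3.59 in D361E. For Trib3 the p1-361 arrays gave 3.48, 3.27, 4.38 and 3.70, and those of p363-549 4.10, 3.70, 4.78 and 2.75. All arrays of both fragments but the third lay below every VOID array, and the third array was the highest in each group. The difference between both fragments and VOID was −0.66 (95% interval −1.66 to 0.35). Asns, the asparagine synthetase gene, had levels of 5.23, 4.74, 4.74 and 5.03 in VOID and 4.33, 4.39, 4.07 and 4.98 in p1-361. Asns read 5.07, 4.74, 4.72 and 4.60 in WT and 4.62, 4.44, 4.24 and 4.90 in D361E. For Asns the p363-549 arrays gave 4.86, 4.56, 4.29 and 4.58, and those of both fragments 4.39, 4.52, 4.75 and 4.48. The p1-361 arrays lay below VOID except for the fourth, which fell within it. Its differences from VOID were −0.15 in WT, −0.38 in D361E, −0.49 in p1-361, −0.36 in p363-549 and −0.40 with both fragments, none called (limma adjusted p from 0.254 to 1.0). Unlike Ddit3 and Trib3, Asns was not high on the third arrays. Ppp1r15a, which encodes GADD34, the regulatory subunit that dephosphorylates eIF2, differed from VOID by −0.13 to 0.29. Sesn2, a stress-induced regulator of nutrient signalling, differed by −0.56 to −0.13.

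Of the chaperones, Hspa5, which encodes BiP, the main ER chaperone and a brake on all 3 sensors, had levels of 5.73, 5.28, 6.14 and 5.67 in VOID and 5.51, 5.21, 6.06 and 5.24 in WT. With D361E they were 5.07, 5.01, 5.44 and 5.15 and with both fragments 5.79, 5.54, 6.12 and 5.05. For Hspa5 the p1-361 arrays gave 5.21, 5.06, 5.87 and 4.84, and those of p363-549 5.26, 5.07, 6.4 and 5.58. D361E, with the lowest mean, overlapped VOID only through the third array. The difference was −0.54 in D361E (95% interval −1.13 to 0.05, limma adjusted p = 0.874) and −0.08 with both fragments (95% interval −0.67 to 0.52). Hsp90b1, the ER member of the HSP90 family, had levels of 5.08, 5.04, 5.60 and 5.07 in VOID and 4.99, 4.93, 5.74 and 4.86 with both fragments, a difference of −0.06 (95% interval −0.62 to 0.49). Hsp90b1 read 5.09, 5.12, 5.80 and 4.85 in WT and 4.96, 4.82, 5.27 and 4.67 in D361E. For Hsp90b1 the p1-361 arrays gave 5.02, 5.19, 5.72 and 4.72, and those of p363-549 5.33, 5.12, 6.14 and 5.0. For Hspa5 and Hsp90b1 the third array was the highest in each of the 6 groups.

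Dnajb11, a co-chaperone of BiP, followed the groups more than any member besides Nupr1, with 57.1% of its variation (sum of squares) between groups. Its levels were 2.57, 2.49, 2.58 and 2.67 in VOID, 2.25, 2.25, 2.15 and 2.58 in WT, 2.15, 2.35, 2.21 and 2.47 in D361E and 2.29, 2.29, 2.24 and 2.38 in p1-361. In p363-549 they were 2.31, 2.28, 2.29 and 2.70, and with both fragments 2.84, 2.72, 2.51 and 2.59. The D361E and p1-361 arrays all lay below VOID, and the arrays of both fragments overlapped it. No comparison was called over all arrays; the closest to a call was both fragments minus WT, 0.36 (95% interval 0.10 to 0.61, limma adjusted p = 0.209). Additivity differed from 0 by 0.55 (limma adjusted p = 0.263), and by 0.70 (limma adjusted p = 0.0197) without the 3 libraries labelled replicate 4 of the fragment groups. In that setting 2 members were called, beside 10.7% of all genes, the other being Creld2 (0.70, limma adjusted p = 0.0473).

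Creld2, an ER-resident protein induced by ER stress, had levels of 3.36, 3.44, 3.51 and 3.58 in VOID and 4.04, 4.05, 3.67 and 3.49 with both fragments. Creld2 read 3.55, 3.47, 3.46 and 3.52 in WT and 3.04, 3.17, 3.17 and 3.55 in D361E. For Creld2 the p1-361 arrays gave 3.15, 3.34, 3.57 and 3.46, and those of p363-549 3.09, 3.40, 3.54 and 3.71. The first 3 arrays of both fragments lay above all VOID arrays and the fourth did not. The difference was 0.34 (95% interval 0.03 to 0.66, limma adjusted p = 0.231). Hyou1, an HSP70-like ER chaperone, had levels of −2.55, −2.74, −3.01 and −2.75 in VOID, −3.16, −3.39, −3.19 and −3.10 in WT and −3.12, −3.27, −4.04 and −2.92 in D361E. Hyou1 read −2.92, −2.96, −3.0 and −3.09 in p1-361 and −3.03, −3.01, −3.11 and −2.82 in p363-549. For Hyou1 the arrays of both fragments gave −2.79, −3.24, −3.39 and −2.74. WT did not overlap VOID, and D361E did only through the fourth array. The differences were −0.45 in WT (limma adjusted p = 0.712) and −0.57 in D361E (limma adjusted p = 0.304). Calreticulin (Calr), the lectin chaperone, differed from VOID by −0.37 with both fragments and −0.40 in D361E, without overlap and without a call. Nupr1 and Calr were the 2 members whose arrays of both fragments did not overlap VOID, where 9.92% of all genes did not. The other members of this kind are Dnajb9 and Dnajc3, co-chaperones of BiP, Sdf2l1, Canx (calnexin, the membrane-bound lectin chaperone) and Manf, a secreted protein induced by ER stress. They had intervals against VOID that reached no further than −0.86 and 0.82 in any group.

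Among the oxidative folding enzymes, Pdia3, Pdia4 and Pdia6, protein disulfide isomerases, differed between both fragments and VOID by −0.24, −0.63 and 0.04. Ero1l, the oxidase that recharges those isomerases, had the widest interval of all members there, −2.03 to 2.02 around −0.01. Its levels were −0.87, 1.10, 2.78 and 0.27 in VOID and 0.52, −0.52, 3.77 and −0.52 with both fragments. The third array was the highest in both, and the groups overlapped. Its relative Ero1lb differed by 0.04 (95% interval −0.70 to 0.77). These genes were singled out after their values were seen.

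In ER-associated degradation, Herpud1, a scaffold of the retrotranslocation complex, had levels of 2.58, 2.42, 2.78 and 2.74 in VOID and 2.90, 2.74, 2.72 and 2.32 with both fragments. Herpud1 read 2.54, 2.26, 3.04 and 2.46 in WT and 2.12, 2.40, 2.5 and 2.55 in D361E. For Herpud1 the p1-361 arrays gave 2.15, 2.21, 2.69 and 2.43, and those of p363-549 2.09, 2.35, 3.01 and 2.33. The groups overlapped, and the difference between both fragments and VOID was 0.04 (95% interval −0.37 to 0.45). Syvn1, which encodes the ubiquitin ligase HRD1, had levels of 4.04, 3.74, 3.96 and 3.95 in VOID and 4.47, 4.36, 4.62 and 4.02 with both fragments. Syvn1 read 4.29, 4.02, 4.36 and 4.2 in WT and 4.16, 4.19, 4.12 and 4.13 in D361E. For Syvn1 the p1-361 arrays gave 4.21, 3.92, 4.44 and 4.16, and those of p363-549 3.96, 3.93, 4.30 and 4.08. The first 3 arrays of both fragments were above every VOID array and the fourth lay inside their range. All D361E arrays were above every VOID array. D361E did not overlap VOID for 4 of 33 members, Syvn1 among them, beside 4.76% of all genes. Syvn1 differed from VOID by 0.30 in WT, 0.23 in D361E, 0.26 in p1-361 and 0.14 in p363-549, none called. The difference between both fragments and VOID was 0.45 (95% interval 0.16 to 0.73, limma adjusted p = 0.0681). It was called without the 3 libraries labelled replicate 4 of the fragment groups (0.56, limma adjusted p = 0.0121), when 9.67% of all genes were called and the members were Syvn1 and Nupr1. Derl2, a derlin of the same machinery, differed by 0.34 (limma adjusted p = 0.267), Derl1 by −0.06, the HRD1 partner Sel1l by 0.16 and the mannosidase-like Edem1 by −0.52, none called.

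**Figure D2:**
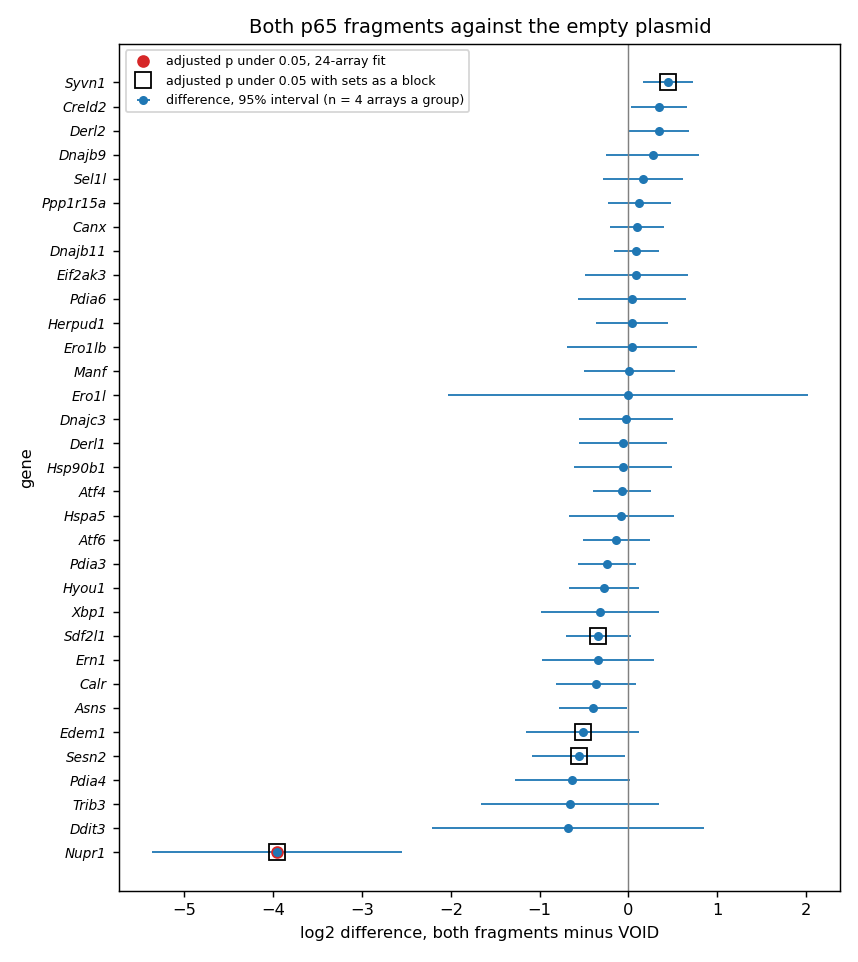
Log2 difference between both fragments and VOID (horizontal axis) for the 33 members tested (vertical axis), with 95% intervals from 4 arrays a group; the filled red point marks the call over all arrays and squares mark calls with the sets as a block. Nupr1 lies at −3.96 and the other 32 lie between −0.68 and 0.45.

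Much of the members' variation lay between the sets. An F test of the sets, added after the data were examined, called 26 of 33 members, beside 58.6% of all genes. All 4 sensors and their transcription factors were called, 9 of 11 chaperones, 4 of 5 oxidative folding enzymes, 5 of 6 degradation genes and 4 of 7 stress-response factors and targets. The 7 members not called were Atf4, Asns, Nupr1, Dnajb11, Creld2, Pdia3 and Derl2. The median share of a member's variation (sum of squares) was 52.3% between sets and 19.4% between groups, where all genes had medians of 35.9% and 23.6%. Ero1lb lay at one end, with 91.3% between sets, and Nupr1 at the other, with 67.1% between groups and 1.28% between sets.

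**Figure D3:**
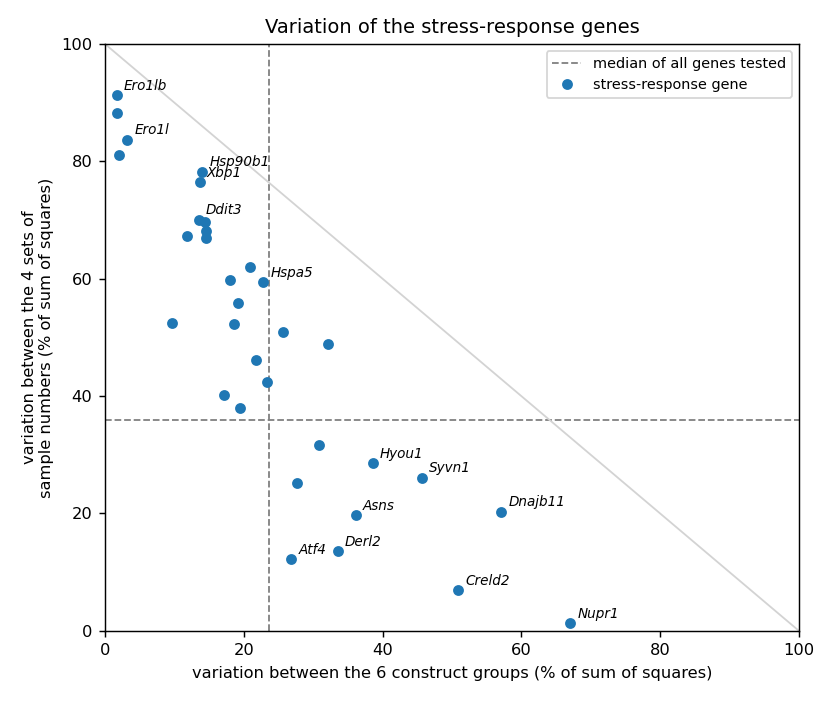
Share of each member's sum of squares between the 6 groups (horizontal axis, %) and between the 4 sets (vertical axis, %), 1 point a gene; dashed lines are the medians of all genes tested, 23.6% and 35.9%, and the grey diagonal is 100% in all. Most members lie at the upper left, and Nupr1 and Dnajb11 lie furthest right.

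The third set carried this pattern. Its array was the highest of 4 in all 6 groups for 13 of 33 members (39.4%), beside 9.81% of all genes, and for no member the lowest in all 6. The difference between the third array and the mean of the other 3, averaged over the groups, was above 0 for 30 members, with a median of 0.39, where the median of all genes was 0.08. Under other scalings the count was 29 to 30. It was largest for Ero1l, 2.69 ± 0.64 (SD over the 6 groups), followed by Ddit3, 1.94 ± 0.76, Trib3, 1.18 ± 0.55, Ero1lb, 0.95 ± 0.17, and Xbp1, 0.89 ± 0.24. Hspa5 stood at 0.71 ± 0.25, Hsp90b1 at 0.72 ± 0.19 and Eif2ak3 at 0.75 ± 0.19. Both oxidases, the effectors Ddit3 and Trib3 and the chaperones BiP and GRP94 (Hsp90b1) were thus higher on the third array of every group, VOID included. Atf4 (0.01), Creld2 (0.02) and Ern1 (0.07) were near 0, and Dnajb11 (−0.13), Asns (−0.22) and Hyou1 (−0.31) were below it.

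**Figure D4:**
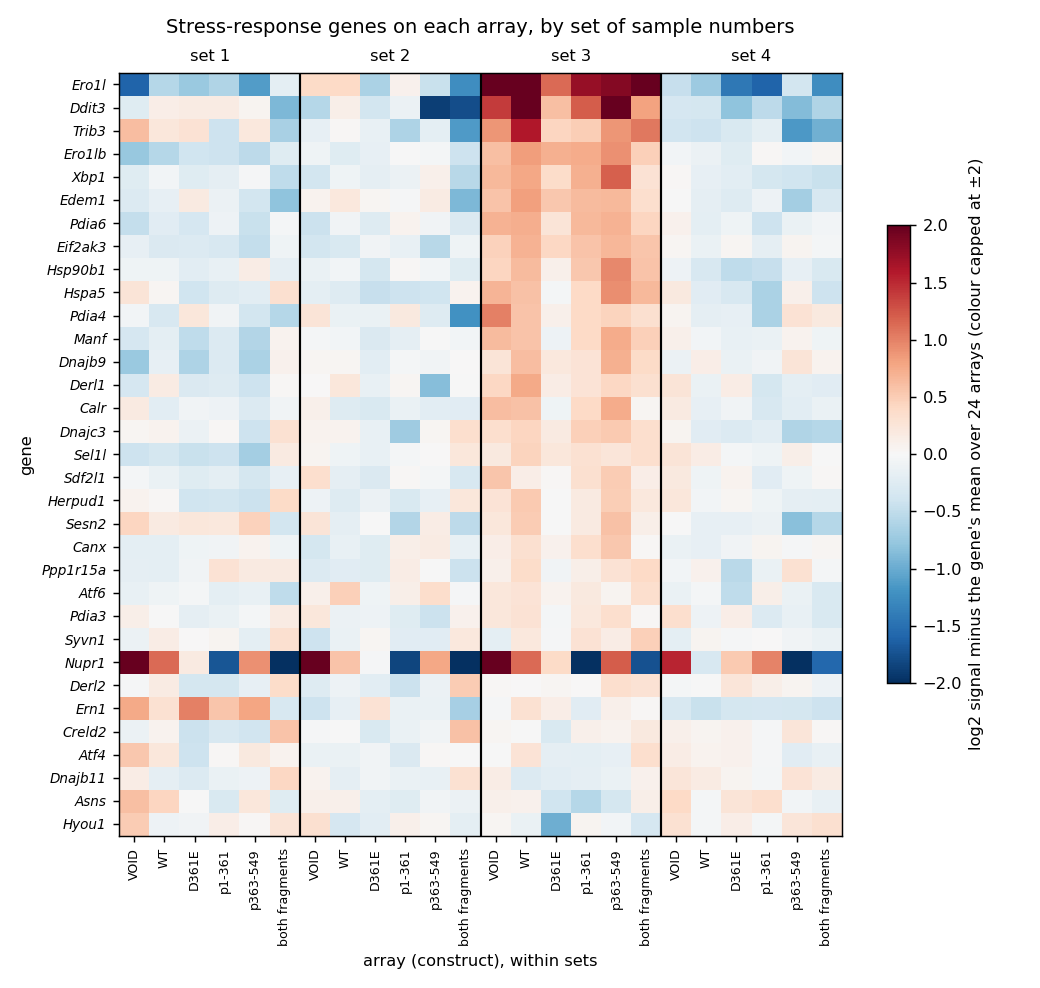
Log2 level of each of the 33 members (rows) minus its mean over 24 arrays, by array (columns) ordered by set and, within a set, by construct; colour runs from −2 (blue) to 2 (red). The 6 columns of set 3 are red for most genes, from Ero1l (mean difference 2.69) down, and Nupr1 changes with the construct instead.

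The 9 tested members with an ERSE in the window were all above 0 on this measure, from 0.02 for Creld2 to 0.95 for Ero1lb. Their median was 0.51, where 30 of all 33 members were above 0 with a median of 0.39. The 4 tested members with a CARE ran from −0.22 for Asns to 1.18 for Trib3, with 3 above 0 and a median of 0.28. The 75th percentile of signal was 641 to 906 on the arrays of the third set and 675 to 1223 on the others, and the third array had the lowest of its group in 4 of 6 groups. The part of array brightness in the set pattern was not tested. Plasma cell and B cell markers summed to 1.35 to 2.72 in the third set and 1.76 to 2.64 in the others, and monocyte markers to 6.37 to 8.67 and 3.53 to 7.31. The erythroid and megakaryocyte sum was 165 to 435 in the third set and 106 to 316 in the others. The mast cell sum was 37.3 to 73.9 and 28.5 to 66.5, and that of the identity genes 84.4 to 139 and 55.8 to 158. The part of these cell types in the set pattern was not tested. Without the third set the F test among the other sets called 4 members, beside 15.5% of all genes: Ern1, Ero1lb, Sel1l and Dnajb9.

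With the sets as a block, some differences between constructs passed that the spread between sets had covered. For both fragments against VOID 5 members were called, beside 16% of all genes: Syvn1 rose by 0.45 (limma adjusted p = 0.0111), and Sesn2 (−0.56, limma adjusted p = 0.0465), Sdf2l1 (−0.34, limma adjusted p = 0.0479), Edem1 (−0.52, limma adjusted p = 0.0386) and Nupr1 (−3.96, limma adjusted p = 0.00236) fell. Against WT 4 members were called, beside 7.3% of all genes: Dnajb11 rose by 0.36 (limma adjusted p = 0.036), and Ddit3 (−1.27, limma adjusted p = 0.0405), Edem1 (−0.60, limma adjusted p = 0.0381) and Nupr1 (−2.49, limma adjusted p = 0.0448) fell. Additivity called Dnajb11 (0.55, limma adjusted p = 0.0373) and Canx (−0.48, limma adjusted p = 0.0434), beside 5.53% of all genes. The F test among groups called Nupr1 and Dnajb11, beside 11.1%. The members' shares, 15.2% and 12.1% for the first 2 comparisons, are to be read against these backgrounds.

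Other genes of the pathways were taken from 4 lists. Among 18 tested genes of sensing and eIF2 signalling, 42 of ER folding and 25 of ER-associated degradation, the limma F test among groups called none. At an unadjusted p under 0.05 were 1, 0 and 3 of them, beside 13.5% of all genes. Against VOID, cells with both fragments had a higher level of Eif2ak2, the double-stranded RNA kinase PKR, by 0.84 (limma adjusted p = 0.0151), and of Ngly1, which removes N-glycans from misfolded proteins, by 0.68 (limma adjusted p = 0.0393). The Eif2ak2 call held in 10 and the Ngly1 call in 6 of 13 other settings. No ER folding gene was called there, with 6 of 42 (14.3%) at an unadjusted p under 0.05, beside 18.6% of all genes. Among 37 other targets of ATF4 and CHOP, 7 fell and none rose in that comparison, where 2.52% of all genes were called lower. The F test called 3 of the 37, Cth, Atf5 and Cebpb, beside 2.84% of all genes.

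Cth, the cystathionine gamma-lyase gene, had levels of −2.36, −2.33, −2.30 and −2.002 in VOID and −7.40, −7.54, −7.06 and −5.55 with both fragments, where its probe was above background on 0 of 4 arrays. Cth read −3.28, −3.28, −3.16 and −3.10 in WT and −4.09, −3.87, −3.79 and −3.28 in D361E. For Cth the p1-361 arrays gave −5.72, −5.41, −4.22 and −2.98, and those of p363-549 −4.10, −3.65, −3.34 and −7.05. Every array of the 5 p65 groups lay below every VOID array. Cth was above background on 2 arrays of p1-361, 3 of p363-549 and all 4 of VOID, WT and D361E. It thus passed the filter on dim probes only through VOID, WT and D361E. Its place among the genes called lower with both fragments rests in part on that filter. With both fragments, on readings below background, Cth differed by −4.64 from VOID and by −3.68 from WT (limma adjusted p = 0.000159 and 0.00494). In these values the bounds on the fall were at least 7.46-fold against VOID and at least 3.85-fold against WT. Under normexp background correction the Cth differences were smaller, −1.54 against VOID and −1.21 against WT, with no call (limma adjusted p = 0.0595 and 0.422). These fall short of the bounds, which therefore hold only for the values without that correction. The bounds set the mean of the brighter group against the lowest signal well above background on each array. Atf5, a transcription factor related to ATF4, had levels of 4.51, 3.53, 3.35 and 4.08 in VOID and 2.78, 2.64, 2.11 and 2.56 with both fragments, without overlap. Atf5 read 3.94, 3.81, 4.18 and 3.90 in WT and 3.55, 3.41, 2.94 and 3.39 in D361E. For Atf5 the p1-361 arrays gave 3.14, 2.96, 2.95 and 3.22, and those of p363-549 3.27, 3.12, 3.27 and 2.24. The p1-361 and p363-549 arrays also all lay below every VOID array. With both fragments Atf5 fell by 1.35 on the log2 scale (SE 0.24, limma adjusted p = 0.00193), and against WT by 1.44 (SE 0.24, limma adjusted p = 0.00448). Cebpb, a dimerisation partner of CHOP, had levels of 3.58, 3.72, 4.02 and 3.60 in VOID and 2.46, 2.29, 2.94 and 3.48 with both fragments, again without overlap. Cebpb read 3.65, 3.65, 4.07 and 3.90 in WT and 4.27, 4.28, 4.19 and 3.83 in D361E. For Cebpb the p1-361 arrays gave 3.61, 3.87, 3.84 and 3.31, and those of p363-549 3.64, 3.75, 4.05 and 2.90. In Cebpb the fourth array of p363-549 lay below the rest of its group. With both fragments it fell by 0.94 on the log2 scale (SE 0.24, limma adjusted p = 0.0259).

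The other 4, named after their values were seen as were Eif2ak2 and Ngly1, were the glycine transporter Slc6a9 (−1.13, limma adjusted p = 0.0134), the alanine aminotransferase Gpt2 (−0.98, limma adjusted p = 0.00828), the AP-1 family repressor Jdp2 (−0.83, limma adjusted p = 0.0293) and Pycr1 of proline synthesis (−0.82, limma adjusted p = 0.0215). The Jdp2 groups overlapped through the fourth array of both fragments, and the others did not. With the sets as a block 13 of the 37 were called, all lower, beside 7.41% of all genes called lower. Without the 3 libraries labelled replicate 4 of the fragment groups, 9 were lower and 2 higher, beside 9.67% of all genes called there. The count was 3 without both fragments replicate 2, 4 without both fragments replicate 1 or VOID replicate 2, and 11 without both fragments replicate 4. Shares of all genes called in the fits without 1 array are not given. Against WT, 3 of the 37 were called, all lower (Cth, Atf5 and Cebpb), beside 0.937% of all genes. The Cebpb call against WT was lost in 13 of 24 fits without 1 array (limma adjusted p up to 0.215) and in 5 of 13 other settings. Without the third set the calls against WT were also lost for Cth (limma adjusted p = 0.0941) and Atf5 (limma adjusted p = 0.0671). The cell-type marker sums given beside Nupr1 apply to this comparison too, and their part in it was not tested.

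**Figure D5:**
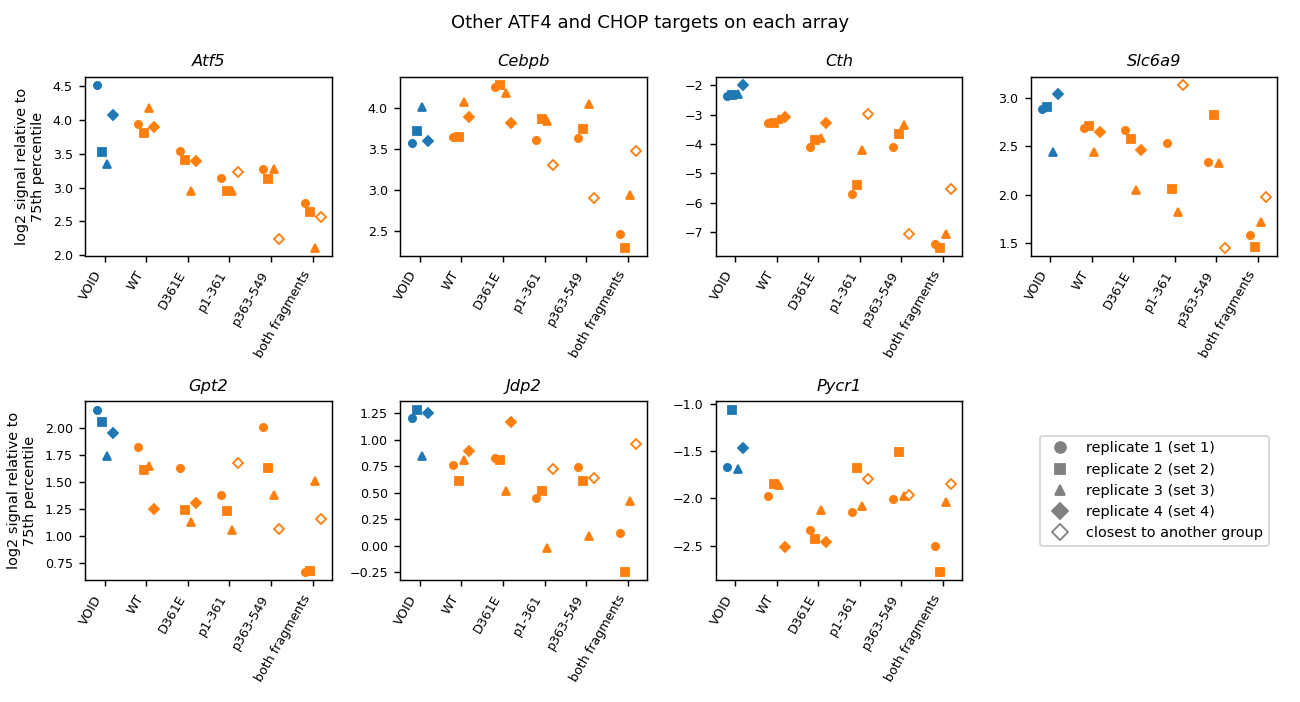
Log2 level relative to the 75th percentile (vertical axes, scaled to each gene) of the 7 other ATF4 and CHOP targets called lower with both fragments than in VOID, on each of 24 arrays by construct; symbols give the replicate and open symbols mark replicate 4 of the fragment groups. The 4 Cth arrays of both fragments, −7.54 to −5.55, lie below all 4 VOID arrays, −2.36 to −2.002.

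Several members have more than 1 probe, and these did not always tell the same story. Both probes of Atf4 lay near 0 for both fragments minus VOID (−0.07 and 0.03). Of the 4 Ern1 probes, 2 were above background on no array. Another, above background on 18 arrays, was 1.87 higher in the third set where the brightest probe was 0.07 higher. The 3 Pdia6 probes had the same sign for the third set, at 0.77, 0.58 and 1.33. Dnajb11's second probe, above background on 4 arrays, differed by −1.14 for both fragments minus VOID where the first differed by 0.09. Nupr1 had no second probe.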

How the data were processed

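The submitters' processing notes name Agilent Feature Extraction 10.7.3.1. The signal intensity used is the authors' background-subtracted, detrended value per spot, linear and with no scaling across arrays, per the file headers; the series' value table differs from it by 0. Of 44397 spots, 43020 were not controls, 185 to 312 per array carried outlier marks and were left out, and 0 were saturated.

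Each array's 75th percentile was subtracted from its log2 intensity (deposited values, then log2 here). The brightest probe was read for a gene, and a gene was tested if every array of some group had it well above background. R 4.3.3 and limma 3.58.1 fitted 6 group means to 24 arrays (18 residual degrees of freedom), with Benjamini-Hochberg adjustment over 15056 genes, 2-sided; the fit was tested on simulated data. Alternatives changed the background correction, scaling, filter, probe rule, blocks and arrays used. The set test, the fit without the third set and the hypoxia list were added after seeing the data. The members and all lists were chosen with earlier results of these data known. Given in full by rule were members called in any comparison, the 6 with the smallest F test p and 11 core genes fixed by name, and genes of other lists that the F test called; further members and genes were named after their values were seen. RefSeq windows for Atf6, Hyou1, Manf and Derl1 were not matched.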

Additional observations from a re-analysis of the deposited data

Results flagged for a closer look

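For the 16 members given in full and 3 other targets, each group of 4 arrays was searched for a highest or lowest array far from the other 3, by Dixon's ratio at its 95% critical value. The genes were read on the same arrays, and some were chosen by their values here. The groups are therefore not independent trials, and the count is not set against chance. Of 114 groups 13 held such an array. Of these, 8 were the third array of a group: Hsp90b1 in VOID (5.60) and with both fragments (5.74), Ddit3 in VOID (1.42) and WT (2.73), Xbp1 in WT (6.05), D361E (5.64) and both fragments (5.56), and Eif2ak3 with both fragments (−0.21). Each of the 8 lay above its group's other arrays. Another 4 were libraries labelled replicate 4 of a fragment group: Nupr1 in p1-361 (−0.40, the others −3.54 to −3.11) and in p363-549 (−4.11, the others −0.62 to −0.17), Dnajb11 in p363-549 (2.70, the others 2.28 to 2.31) and Atf5 in p363-549 (2.24, the others 3.12 to 3.27). The last was Cth in VOID replicate 4 (−2.002, the others −2.36 to −2.30).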

How the results depend on the processing

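The labels number the samples and give no replicate numbers, so the only pairing tried was by set of sample numbers, as a block. With that block the calls among the members were 2 among the groups, 5 for both fragments against VOID, 4 for both fragments against WT and 2 for additivity. Without replicate 4 of the 3 fragment groups they were 1 each for WT, D361E and p1-361 against VOID, p1-361 and both fragments against WT, and p1-361 against p363-549, and 2 each for both fragments against VOID and additivity. With only the arrays compared they were 1 for D361E against VOID, 0 for p1-361 against VOID and 1 for both fragments against WT. Without the third set they were 0 among the groups, 0 for p1-361 against VOID and 4 for the set test, beside 15.5% of all genes in that set test. Leaving out 1 array at a time gave 0 to 1 for p1-361 against VOID, 1 to 2 for both fragments against VOID, 0 to 1 for both fragments against WT, 0 to 1 for additivity and 22 to 27 for the set test. Apart from the block, these fits used fewer arrays, and the causes of the changed calls were not tested. Shares of all genes called are not given for the fits with only the arrays compared or with 1 array left out. Nor are they given for the group comparisons without the third set. Those counts therefore have no background here and are not results about the members. Nupr1 with both fragments against VOID was called in 13 of 13 other settings (−4.05 to −3.02). Among the other targets, Atf5 and Slc6a9 were called against VOID in 13 of 13, Gpt2 in 12, Cebpb in 10, Jdp2 and Pycr1 in 9 each and Cth in 11 of 12. Against WT, Atf5 was called in 12 of 13, Cebpb in 8 of 13 and Cth in 10 of 12. The 7 lower targets were 4 under normexp or with no filter and 3 with only the arrays compared, again without a share of all genes. For members just above background, a difference is limited by the background signal, and the number of arrays limits the precision.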

Other observations

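The genes that shared the third set's pattern went beyond the unfolded protein response. Among 19 genes of the hypoxia response, a list added after the data were examined, 16 were tested, and 12 of these had their highest level on the third array in all 6 groups, where 9.81% of all genes did. Averaged over the groups, the third array exceeded the mean of the other 3 by 2.39 for the glucose transporter Slc2a1, 2.37 for Ndrg1, 2.22 for Ankrd37, 2.10 for the collagen prolyl hydroxylase P4ha1, 1.99 for the mitophagy gene Bnip3 and 1.04 for Vegfa. The median of the list was 1.01, beside 0.08 for all genes. Ero1l, at 2.69, is known as a target of hypoxia signalling as well as of ER stress. The part of oxygen or culture conditions in the set pattern was not tested, and the labels name no such condition.

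The other ATF4 and CHOP targets went the opposite way in the third set. Of 37 tested, 27 had a mean difference below 0 (29 after quantile normalization), 12 were lowest on the third array in all 6 groups, where 10.6% of all genes were, and 3 were highest. Shmt2 of serine and glycine metabolism stood at −1.15, the tyrosyl-tRNA synthetase Yars at −0.83, the amino acid transporters Slc7a1 at −0.82 and Slc7a5 at −0.76 and the tRNA exporter Xpot at −0.81. Bbc3, which encodes the pro-apoptotic PUMA, stood at 1.02. On the same arrays Ddit3 and Trib3 were high and Asns was not, so the members and these targets did not move as a block. Of the other ER folding genes 6 of 42 (14.3%) were highest in all 6 groups, beside 9.81% of all genes, and 2 were lowest in all 6. The isomerase P4hb stood at 0.95. Of 25 other degradation genes 6 were highest and 3 lowest in all 6 groups. Of 18 other genes of sensing and eIF2 signalling 1 was highest and 2 were lowest. The median differences were 0.04 for ER folding, −0.02 for degradation and −0.12 for sensing.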
